A study of Rattus norvegicus with 10 samples.

Results

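Atf5 and 9 other genes of the integrated stress response were followed by RNA-seq in CA1 tissue dissected from hippocampal slices of rats. They are the rows of the count table named Atf5, Atf4, Atf3, Ddit3, Cebpb and Cebpd, which encode transcription factors, and Trib3, Ddit4, Asns and Chac1, which are targets or regulators of these factors. They make up 10 of the 32545 genes in the table, and all 10 passed the filter on low counts that left 15032 genes for testing. The question was whether Atf5 moved together with the other genes over 5 treatment groups. Atf5 and Cebpb belong to a gene network that the study drew from SKF+Aβ+CSP against SKF, so that their difference in that contrast was part of how they were chosen. Their values are therefore described without a test in every comparison that uses the SKF or the SKF+Aβ+CSP libraries. The study also compared SKF+Aβ+CSP-TTK21 with SKF+Aβ+CSP when it picked out genes. Tests of Atf5 and Cebpb that use the SKF+Aβ+CSP-TTK21 libraries may therefore not be free of that choice.

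Each group held 2 libraries, 10 in all. SKF slices received SKF, a dopamine D1/D5 receptor agonist. SKF+Aβ slices received the same agonist with amyloid β oligomers at 200 nM. SKF+Aβ+CSP slices received in addition CSP, a carbon nanosphere made from glucose, and SKF+Aβ+CSP-TTK21 slices received that particle carrying TTK21, a small molecule that activates the CBP and p300 acetyltransferases, each at 0.36 μg/ml. In the group called CSP-TTK21 alone below, slices received the loaded particle without agonist and without Aβ. Every group had 30 min of basal stimulation before treatment and was collected 1 h after it. Rats were adult males of the Wistar strain, 5 to 7 weeks old, and each repeat is described as 2 slices taken from 2 biological samples, so a library may pool animals. Values given below with Aβ, with Aβ and CSP, or with Aβ and CSP-TTK21 are those of the SKF+Aβ, SKF+Aβ+CSP and SKF+Aβ+CSP-TTK21 groups, all of which had the agonist too. Untreated slices were not analysed here, so the effect of the agonist itself cannot be read from these comparisons, and CSP-TTK21 alone differs from SKF by both the agonist and the particle.

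The integrated stress response is a shared pathway in which kinases that sense amino acid shortage, misfolded protein, viral RNA or lack of haem phosphorylate the translation factor eIF2. General protein synthesis then falls while the mRNAs of ATF4, ATF5 and CHOP, the product of Ddit3, are translated more. These factors, often paired with C/EBP partners, switch on genes for amino acid supply, redox balance and, under lasting stress, cell death. In the hippocampus the pathway is known for its part in long-lasting synaptic plasticity, and ATF4 is also known there as a repressor of CREB-dependent transcription. Only RNA was measured here, so neither the phosphorylation of eIF2 nor the amount of any of these proteins is known.

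Total counts were between 6753742 and 8473407 per library, and 3 counts correspond to between 0.354 and 0.444 normalized CPM, the counts scaled to a common library size. Levels are CPM after TMM normalization, which compare a gene between libraries but not one gene with another. The first principal component, with 25.4% of the variance, placed SKF replicate 1 farthest from the rest with a score of 44.8, and SKF replicate 2 next on the same side with 17.9, against values from -24.6 to 16.5 in the other 8 libraries. As a check of the CA1 tissue, pyramidal neuron genes such as Slc17a7 and Wfs1 were present in every library, the latter from 98.1 to 371.8 CPM. Fibcd1 was listed at 0 in all of them. Of 6 markers of the neighbouring dentate gyrus, Prox1 was between 141.6 and 247.5 CPM and C1ql2 between 36.9 and 58.1 CPM. Dsp, Npnt, Lct and Tdo2 were far lower, at most 10.85, 4.84, 1.41 and 0.285 CPM. Summed over 9 oligodendrocyte markers, the level was 16390 and 24200 CPM in SKF, 11040 to 15670 with Aβ, 17460 to 17830 with Aβ and CSP, 14970 to 25150 with Aβ and CSP-TTK21 and 15080 to 15410 with CSP-TTK21 alone, so that SKF+Aβ and CSP-TTK21 alone lay entirely below SKF. Summed microglia markers (9 genes) were between 106.1 and 215.2 CPM, and endothelial markers (7 of 8 in the table, Cldn5 at 0 throughout) between 88.1 and 221.3 CPM, with SKF+Aβ+CSP-TTK21 (88.1 and 90.4) below SKF (114.4 and 212.3). In SKF+Aβ+CSP the microglia markers, at 106.1 and 123.3 CPM, lay below SKF (130.9 and 215.2 CPM). Summed over 8 pyramidal neuron markers, the level was 4737 and 5354 CPM in SKF, 4438 to 4444 with Aβ, 3920 to 4232 with Aβ and CSP, 4782 to 4912 with Aβ and CSP-TTK21 and 4010 to 4560 with CSP-TTK21 alone, so that all groups but SKF+Aβ+CSP-TTK21 lay entirely below SKF. Summed inhibitory neuron markers were 391.2 and 392.4 CPM in SKF and from 383.9 to 550.0 CPM elsewhere, above SKF in SKF+Aβ+CSP-TTK21 (494.0 to 500.6) and in CSP-TTK21 alone (413.9 to 457.2). Summed astrocyte markers lay between 4142 and 6198 CPM, and SKF overlapped with every other group. The part of cell make-up in the results below was not tested, and in such tissue fewer cells of a type and less RNA per cell cannot be told apart.

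Promoter sequence from RefSeq (build GRCr8, 250 bases before to 50 after each start) was at hand for 8 of the 10 genes, all but Atf3 and Cebpd. The letters of the C/EBP-ATF response element that ATF4 binds, searched as TGATGNAA on both strands, occur in 3.98% of 33469 rat promoters, and among these 8 in those of Chac1 and Trib3. A related sequence, TGACGCAA, occurs in 0.496% of all promoters and was found in that of Chac1, upstream of the element. The full CRE (TGACGTCA, in 1.83% of promoters) and the composite ATTGCATC (in 0.556%) were in none of the 8. Capitals mark the matches, and the Atf5 sequence is shown because it holds none of the 4 motifs in its whole window.
Chac1, chr3:126795881-126796030, plus strand, bases -250 to -101 from the start: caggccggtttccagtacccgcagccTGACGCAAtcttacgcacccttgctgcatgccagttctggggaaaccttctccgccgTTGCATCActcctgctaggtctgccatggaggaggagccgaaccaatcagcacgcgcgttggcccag
Trib3, chr3:161275534-161275633, minus strand, bases -100 to -1: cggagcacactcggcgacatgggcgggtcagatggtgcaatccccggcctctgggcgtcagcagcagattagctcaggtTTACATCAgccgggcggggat
Atf5, chr1:104434796-104434895, minus strand, bases -100 to -1: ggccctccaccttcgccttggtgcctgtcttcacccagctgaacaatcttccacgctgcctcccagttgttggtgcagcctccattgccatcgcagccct
The element runs from -167 to -160 in Chac1 and from -21 to -14 in Trib3, both on the opposite strand to the gene. A match is a description of letters and not evidence of binding, and no match says only that the letters are not in this window.

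Atf5, a bZIP factor known for cell survival and for the mitochondrial stress response, was higher in both SKF libraries than in any other library. It was 43.8 and 57.4 CPM in SKF (317 and 430 counts), 19.98 and 23.55 CPM with Aβ, 26.7 and 23.6 CPM with Aβ and CSP, 27.5 and 30.8 CPM with Aβ and CSP-TTK21, and 34.2 and 28.3 CPM with CSP-TTK21 alone. The lowest SKF library thus lay above the highest of the other 8 libraries. The group of each library rests on its label alone, since no gene was used here to check which treatment the slices had. The directions given for Atf5 and the other genes hold only as far as the labels do. Group means were, from high to low, 50.6 ± 9.60 CPM in SKF, 31.3 ± 4.13 with CSP-TTK21 alone, 29.1 ± 2.34 with Aβ and CSP-TTK21, 25.2 ± 2.19 with Aβ and CSP and 21.8 ± 2.53 with Aβ (SD, n = 2 each). In this order CSP-TTK21 alone and SKF+Aβ+CSP-TTK21 overlapped, whereas the other neighbours did not, although SKF+Aβ+CSP and SKF+Aβ all but touched.

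As a description of values that chose the gene, the log2 fold change of Atf5 against SKF was -1.22 (SE 0.18) with Aβ, -1.01 (SE 0.18) with Aβ and CSP, -0.80 (SE 0.18) with Aβ and CSP-TTK21 and -0.70 (SE 0.18) with CSP-TTK21 alone. These 4 differences share the same 2 SKF libraries. With Aβ and CSP-TTK21 Atf5 was 0.42 (SE 0.19) higher on the log2 scale than with Aβ, with groups that did not overlap and an edgeR adjusted p = 0.746 (unadjusted p = 0.0397), so the difference did not pass the threshold.

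**Figure D1:**
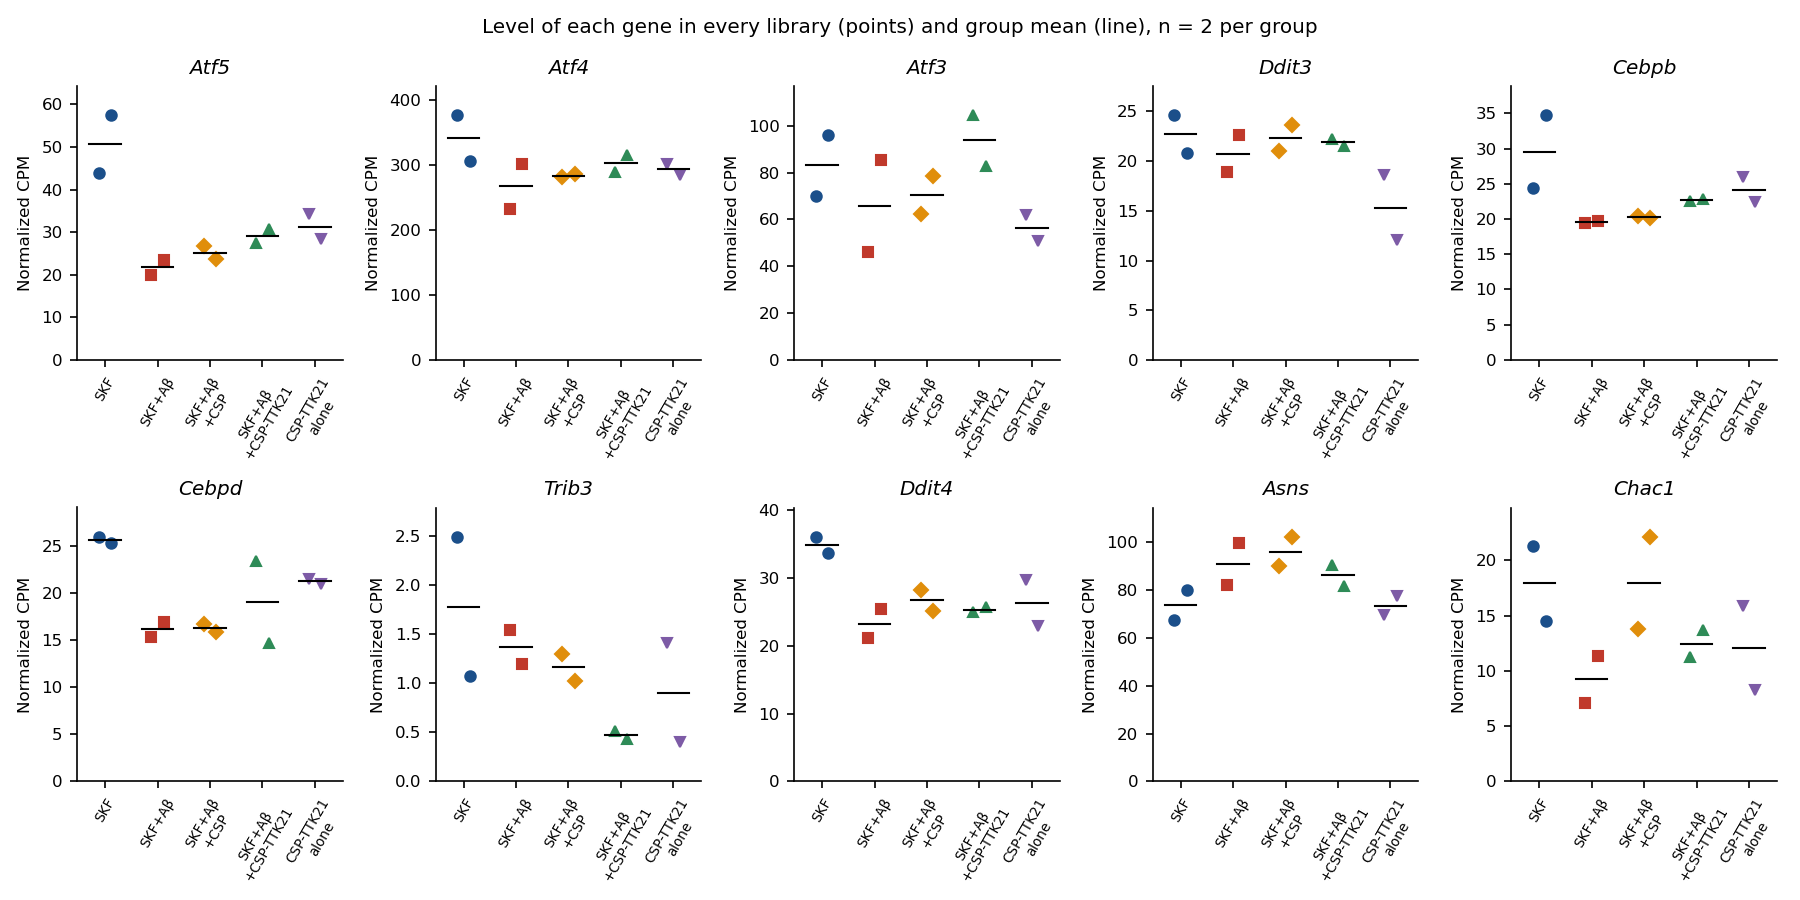
Normalized CPM (vertical axes, from 0, each gene with its own scale) of the 10 genes in the 5 groups (horizontal axes). Points are libraries, with replicate 1 on the left, and lines are means of 2. Both SKF points lie above all other points for Atf5, Cebpd and Ddit4, and Asns lies above both SKF points in the 3 groups that received Aβ.

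Atf4, the central factor of the pathway, was highest in SKF replicate 1 and lowest in 1 library with Aβ. Its level was 377.1 and 306.8 CPM in SKF, 232.7 and 302.7 CPM with Aβ, 281.9 and 286.3 CPM with Aβ and CSP, 289.9 and 316.4 CPM with Aβ and CSP-TTK21, and 301.6 and 285.7 CPM with CSP-TTK21 alone. The groups other than SKF+Aβ+CSP-TTK21 lay below SKF, in 2 of the 3 by a small gap to its lower library. The difference from SKF was -0.35 (SE 0.15) with Aβ, with an edgeR adjusted p = 0.177, and it fell short of the threshold with Aβ and CSP (-0.27, adjusted p = 0.341) and with CSP-TTK21 alone (-0.22, adjusted p = 0.703) as well. Without SKF replicate 1 these 3 differences were -0.21, -0.12 and -0.07, and without SKF replicate 2 the last 2 were -0.41 and -0.36. The first was -0.19 without SKF+Aβ replicate 1 and -0.57 without SKF+Aβ replicate 2.

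Atf3, an immediate early factor of the same family that stress and neuronal activity both induce, varied widely between the libraries of a group. It was 70.1 and 96.0 CPM in SKF, 46.2 and 85.6 CPM with Aβ, 62.4 and 78.7 CPM with Aβ and CSP, 104.4 and 83.0 CPM with Aβ and CSP-TTK21, and 61.9 and 50.8 CPM with CSP-TTK21 alone. SKF overlapped with the 3 groups that received Aβ, while CSP-TTK21 alone lay below it by a log2 difference of -0.56 (SE 0.25, edgeR adjusted p = 0.633), which was -0.31 without SKF replicate 2. The highest library was one of SKF+Aβ+CSP-TTK21, a group that lay above CSP-TTK21 alone by 0.74 (SE 0.25, adjusted p = 0.963) and above SKF+Aβ+CSP by 0.41 (SE 0.25, adjusted p = 0.616) on the log2 scale. Neither passed the threshold, and the latter was 0.25 without SKF+Aβ+CSP replicate 1 and 0.24 without SKF+Aβ+CSP-TTK21 replicate 1.

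Ddit3, which encodes the pro-apoptotic factor CHOP, overlapped between the 4 groups with the agonist. Its values were 24.6 and 20.8 CPM in SKF, 18.9 and 22.7 CPM with Aβ, 21.0 and 23.6 CPM with Aβ and CSP, and 22.2 and 21.5 CPM with Aβ and CSP-TTK21. Only CSP-TTK21 alone, at 18.6 and 12.03 CPM, lay below both SKF libraries, by a log2 difference of -0.57 (SE 0.21, edgeR adjusted p = 0.633). It lay below SKF+Aβ+CSP-TTK21 too, where Ddit3 was 0.52 higher (SE 0.21, adjusted p = 0.963). These differences were -0.29 and 0.24 without replicate 2 of CSP-TTK21 alone, and -0.93 and 0.86 without its replicate 1.

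Cebpb, a C/EBP factor that dimerizes with ATF4 and is also known as a memory-related gene, was the gene of the 10 whose values ran closest to those of Atf5. It was 24.3 and 34.7 CPM in SKF, 19.4 and 19.7 CPM with Aβ, 20.4 and 20.1 CPM with Aβ and CSP, 22.5 and 22.8 CPM with Aβ and CSP-TTK21, and 25.9 and 22.5 CPM with CSP-TTK21 alone. The 3 groups that received Aβ were tight and below SKF, while one library of CSP-TTK21 alone exceeded SKF replicate 1. As a description, the log2 fold change against SKF was -0.60 (SE 0.19) with Aβ, -0.54 (SE 0.19) with Aβ and CSP and -0.38 (SE 0.18) with Aβ and CSP-TTK21. Without SKF replicate 2 they were -0.32, -0.26 and -0.10, and without SKF replicate 1 the last was -0.63. In SKF+Aβ+CSP-TTK21 Cebpb was 0.21 higher than in SKF+Aβ (SE 0.19), with an edgeR adjusted p = 0.826. That comparison leaves out the SKF and SKF+Aβ+CSP libraries, though the choice of genes may also have drawn on SKF+Aβ+CSP-TTK21.

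Cebpd, a further C/EBP factor, known from acute-phase and glial responses, was again higher in both SKF libraries than elsewhere. It was 26.0 and 25.4 CPM in SKF, 15.4 and 17.0 CPM with Aβ, 16.8 and 15.8 CPM with Aβ and CSP, 23.4 and 14.7 CPM with Aβ and CSP-TTK21, and 21.5 and 21.0 CPM with CSP-TTK21 alone. The difference from SKF was -0.67 (SE 0.21, edgeR adjusted p = 0.0897) with Aβ and -0.65 (SE 0.21, adjusted p = 0.126) with Aβ and CSP, neither past the threshold. The 2 libraries of SKF+Aβ+CSP-TTK21 stood far apart, and their difference from SKF of -0.43 (adjusted p = 0.266) became -0.80 without replicate 1 and -0.15 without replicate 2 of that group. CSP-TTK21 alone was lower by a smaller margin (-0.27, adjusted p = 0.734).

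Trib3, a pseudokinase that ATF4 and CHOP induce and that feeds back on both, was scarce. It had 18 and 8 counts in SKF, 11 and 8 with Aβ, 11 and 7 with Aβ and CSP, 4 and 3 with Aβ and CSP-TTK21, and 10 and 3 with CSP-TTK21 alone. At this depth the counting error is large. The 7 counts with Aβ and CSP-TTK21 against 26 in SKF gave a ratio of 0.267, with an exact 95% interval of 0.0979 to 0.632 that covers counting error only. The ratio was 0.344 (0.122 to 0.856) against SKF+Aβ, 0.401 (0.141 to 1.01) against SKF+Aβ+CSP and 0.529 (0.179 to 1.43) against CSP-TTK21 alone. With the spread between replicates included, the log2 difference of SKF+Aβ+CSP-TTK21 from SKF was -1.87 (SE 0.69), with an edgeR adjusted p = 0.177, and -1.17 without SKF replicate 1. The Trib3 promoter carries the element shown above.

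Ddit4, which encodes REDD1, an inhibitor of mTORC1 that stress and glucocorticoids induce, was the third gene with both SKF libraries above all others. Its values were 36.1 and 33.6 CPM in SKF, 21.1 and 25.5 CPM with Aβ, 28.2 and 25.2 CPM with Aβ and CSP, 25.1 and 25.7 CPM with Aβ and CSP-TTK21, and 29.7 and 22.9 CPM with CSP-TTK21 alone. Log2 differences from SKF were -0.58 (SE 0.17, edgeR adjusted p = 0.0825) with Aβ, -0.38 (SE 0.17, adjusted p = 0.246) with Aβ and CSP, -0.46 (SE 0.17, adjusted p = 0.18) with Aβ and CSP-TTK21 and -0.41 (SE 0.17, adjusted p = 0.633) with CSP-TTK21 alone. None passed the threshold, though the unadjusted p was under 0.05 in all 4, and the last became -0.23 without replicate 2 of CSP-TTK21 alone and -0.62 without its replicate 1.

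Asns, asparagine synthetase and a textbook ATF4 target, lay on the other side of SKF from Atf5 in the groups that received Aβ. It was 67.5 and 79.8 CPM in SKF, 82.3 and 99.7 CPM with Aβ, 89.9 and 102.2 CPM with Aβ and CSP, 90.6 and 81.6 CPM with Aβ and CSP-TTK21, and 69.4 and 77.4 CPM with CSP-TTK21 alone. Each of these 3 groups lay above both SKF libraries and above both libraries of CSP-TTK21 alone, which fell within the range of SKF. The difference from SKF was 0.30 (SE 0.15, edgeR adjusted p = 0.244) with Aβ, 0.38 (SE 0.15, adjusted p = 0.19) with Aβ and CSP and 0.23 (SE 0.15, adjusted p = 0.422) with Aβ and CSP-TTK21. None passed the threshold, and without SKF replicate 1 the 3 values were 0.17, 0.25 and 0.09. The first was 0.14 without SKF+Aβ replicate 2, and the last was 0.36 without SKF replicate 2 and 0.15 without SKF+Aβ+CSP-TTK21 replicate 1.

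Chac1, an enzyme that breaks down glutathione and is a late target of the pathway, was lowest with Aβ. It was 21.3 and 14.6 CPM in SKF, 7.12 and 11.3 CPM with Aβ, 13.8 and 22.1 CPM with Aβ and CSP, 11.2 and 13.7 CPM with Aβ and CSP-TTK21, and 15.9 and 8.29 CPM with CSP-TTK21 alone. SKF+Aβ lay below SKF by a log2 difference of -0.96 (SE 0.34, edgeR adjusted p = 0.121), and below SKF+Aβ+CSP by the same margin, Chac1 being 0.96 higher there (SE 0.34, adjusted p = 1), or 0.59 higher without SKF+Aβ+CSP replicate 2. SKF+Aβ+CSP itself overlapped with SKF, which it did not for Atf5. SKF+Aβ+CSP-TTK21 was lower than SKF (-0.52, adjusted p = 0.391), or -0.24 without SKF replicate 1. The Chac1 promoter holds both motif matches printed above.

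**Figure D2:**
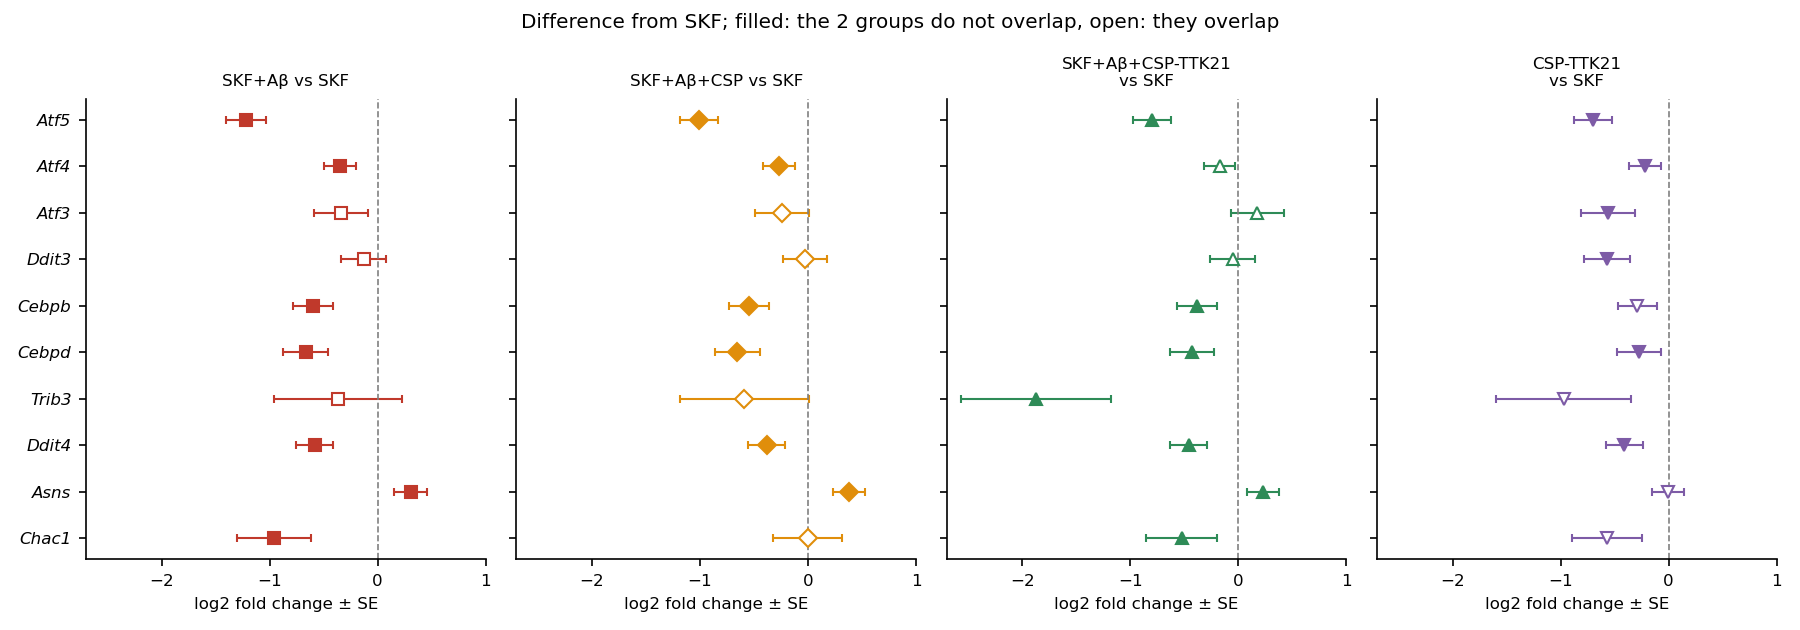
Log2 fold change (horizontal axes) of each gene against SKF in the other 4 groups, from 1 edgeR fit of all 10 libraries, with bars of 1 standard error. Filled symbols mark groups whose 2 libraries do not overlap with those of SKF. Atf5 lies between -1.22 and -0.70 in all 4 panels, Ddit3 lies near 0 in the 3 groups that received Aβ, and Asns lies above 0 in the same 3.

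Counted together against SKF, 6 of the 10 genes had both SKF+Aβ libraries below both SKF libraries, namely Atf5, Atf4, Cebpb, Cebpd, Ddit4 and Chac1, where 24.3% of all 15032 genes tested did so. With Aβ and CSP the count was 5 (all genes, 25.3%), with Aβ and CSP-TTK21 it was 6 (24.5%), and with CSP-TTK21 alone it was 6 (17.3%), but the 6 were not the same genes. Trib3 entered with Aβ and CSP-TTK21, and Atf3 and Ddit3 with CSP-TTK21 alone. Both SKF libraries lay above all 8 others for 3 of the 10 genes, Atf5, Cebpd and Ddit4, against 7.48% of all genes. Without SKF replicate 2 the count was 6 (all genes, 20.9%), with Atf4, Ddit3 and Trib3 added. Without SKF replicate 1 it was 4 (all genes, 17.0%), with only Cebpb added. Atf5 and Cebpb were chosen on such a difference and the 4 comparisons share SKF, so these shares are descriptions. By the values above, summed pyramidal neuron markers were also lower than in SKF in all groups but SKF+Aβ+CSP-TTK21, oligodendrocyte markers in SKF+Aβ and CSP-TTK21 alone, microglia markers in SKF+Aβ+CSP and endothelial markers in SKF+Aβ+CSP-TTK21. In SKF+Aβ+CSP-TTK21 the dentate gyrus markers (247.1 to 280.3 CPM against 203.2 to 242.4 in SKF) and the inhibitory neuron markers were higher than in SKF, as the latter were in CSP-TTK21 alone. The part of these levels in the counts was not tested. The median log2 fold change of the 10 genes was -0.48 with Aβ, -0.32 with Aβ and CSP, -0.40 with Aβ and CSP-TTK21 and -0.48 with CSP-TTK21 alone, beside medians from -0.01 to 0.00 over all genes tested. Over the 8 genes other than Atf5 and Cebpb, which were chosen on one of these differences, the medians were -0.36, -0.25, -0.30 and -0.48 in the same order.

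By the test over all genes, edgeR called none of the 8 testable genes with Aβ against SKF (lowest adjusted p = 0.0825), where it called 2.08% of all genes. Of the 8, 4 had an unadjusted p under 0.05, all of them lower (Atf4, Cebpd, Ddit4 and Chac1), where 22.8% of all genes had one. With Aβ and CSP against SKF 0 of 8 were called (all genes, 0.02%), with 3 at an unadjusted p under 0.05 (19.3%), Cebpd and Ddit4 lower and Asns higher. With Aβ and CSP-TTK21 against SKF 0 of 8 were called (0.00665%), and Trib3 and Ddit4 had an unadjusted p under 0.05 (19.6%). For CSP-TTK21 alone against SKF 0 of 8 were called (0.0%), and Atf3, Ddit3 and Ddit4 had an unadjusted p under 0.05 (7.78%). DESeq2 and limma also called 0 of the 8 in each of these comparisons, with lowest adjusted p values with Aβ of 0.0746 and 0.0817, DESeq2 leaving up to 2 of them without an adjusted p.

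The remaining pairwise comparisons leave SKF aside. With Aβ and CSP against SKF+Aβ edgeR called 0 of 8 genes (0.0% of all genes), and only Chac1 had an unadjusted p under 0.05 (2.18%). For SKF+Aβ+CSP-TTK21 against SKF+Aβ it called 0 of 10 (0.0%), and only Atf5 had an unadjusted p under 0.05 (6.59%). With Aβ and CSP-TTK21 against SKF+Aβ+CSP it called 0 of 8 (0.0%), and 0 of 8 had an unadjusted p under 0.05 (8.78%). Against CSP-TTK21 alone, SKF+Aβ+CSP-TTK21 gave 0 called of 10 (0.0%), with Atf3 and Ddit3 at an unadjusted p under 0.05 (4.18%). The test for any difference among the 5 groups called 0 of 8 (0.00665% of all genes, lowest adjusted p = 0.305), with Cebpd and Ddit4 at an unadjusted p under 0.05 (14.3%). DESeq2 and limma called 0 in each of these too.

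Over the 10 libraries the log2 CPM of Atf5 was most alike to that of Cebpb among the other 9 genes, with Pearson's r = 0.93 and Spearman's rho = 0.98, given as a description because both genes were chosen on the same contrast. Only 0.173% of all genes had a higher r with Atf5 than Cebpb had. Ddit4 followed (r = 0.86, rho = 0.75), then Cebpd (r = 0.76, rho = 0.65), Atf4 (r = 0.68, rho = 0.68), Chac1 (r = 0.45), Atf3 (r = 0.37), Trib3 (r = 0.17, rho = -0.03) and Ddit3 (r = 0.11, rho = -0.09). Asns was the exception, at r = -0.59 and rho = -0.76. Thus 8 of the 9 had an r above 0, or 7 of 8 with Cebpb set aside, where 50.3% of all 15031 other genes did. By rho the count was 6 of 9 (all genes, 49.5%). It was also 6 of 9 by r without SKF replicate 1 (49.6%), where Trib3 was at -0.10 and Ddit3 at -0.03. Without both SKF libraries it was 6 of 9 (all genes, 48.7%), and for deviations from group means 7 of 9 (51.0%).

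The libraries on which Atf5 was chosen enter each of these correlations, so they carry no test. The 2 libraries farthest from the median of Atf5 were those of SKF. Left out, they brought r to 0.68 for Ddit4, 0.48 for Cebpd, 0.74 for Atf4, 0.93 for Cebpb and -0.60 for Asns over 8 libraries. Trib3 (-0.40) and Ddit3 (-0.21) then lay below 0.

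**Figure D3:**
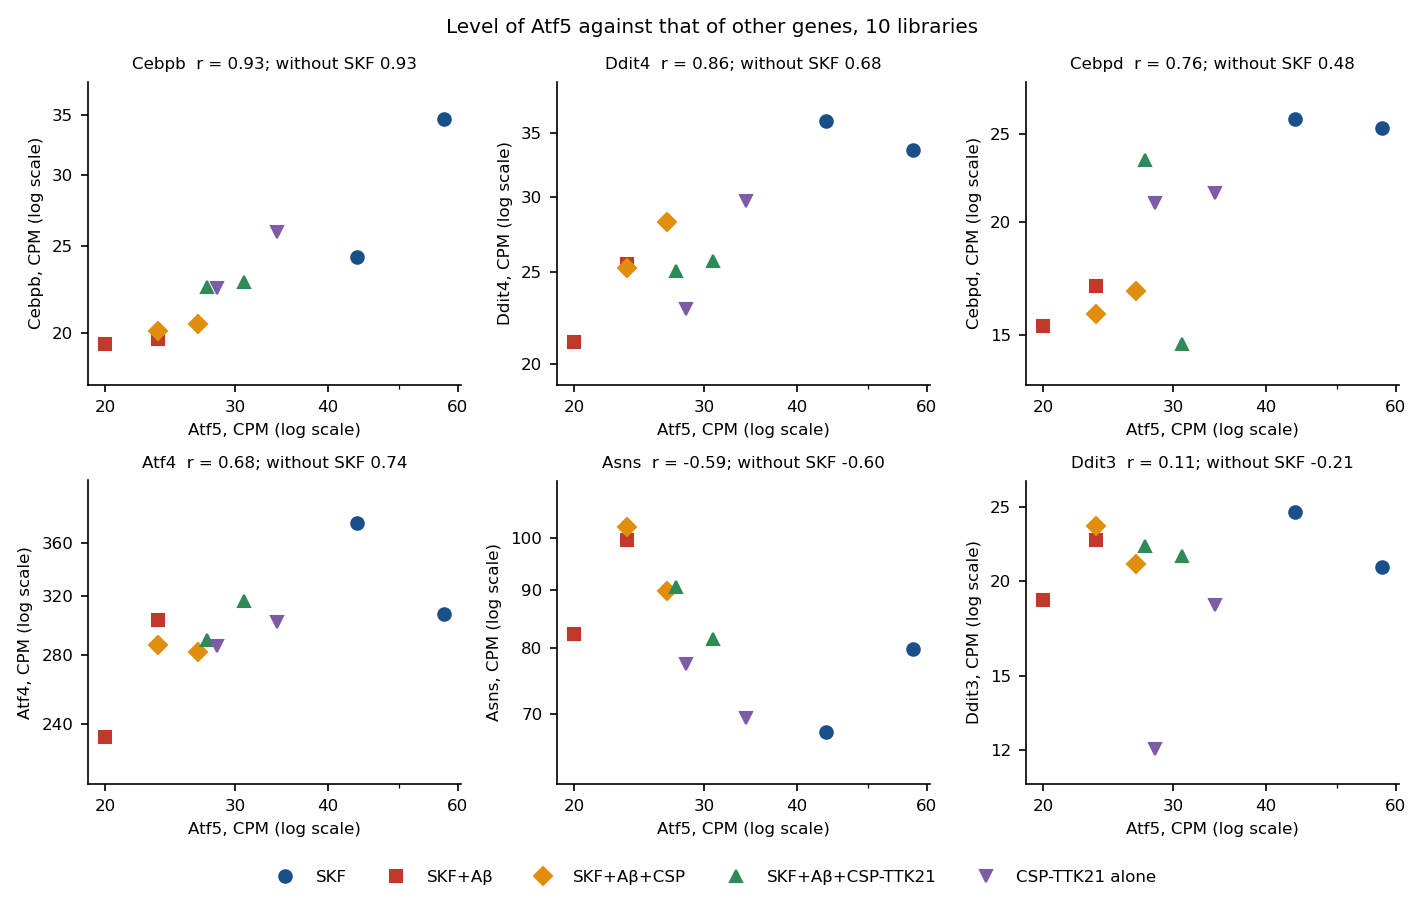
Level of Atf5 (horizontal axes, CPM, log scale) against that of 6 other genes (vertical axes, CPM, log scale) in the 10 libraries, coloured by group, with r over all libraries and without SKF. Cebpb rises with Atf5 over all libraries and over the 8 without SKF (r = 0.93 both times), Cebpd drops from 0.76 to 0.48, and Asns falls as Atf5 rises.

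Within groups, where each library is set against its group's mean, Cebpb had r = 0.83 with Atf5, and Ddit4 (0.55) and Atf3 (0.53) came next. For Atf4 the value was 0.04, for Cebpd -0.16 and for Asns 0.22, all 3 nearer to 0 than over all libraries. With 2 libraries a group these values rest on 5 independent differences and carry no test. The first principal component was correlated with several of these genes, with r = 0.71 for Atf5, 0.84 for Ddit4, 0.72 for Trib3, -0.73 for Asns and 0.53 for Cebpb, and 20.8% of all genes had a larger absolute r with it than Atf5. Its part in the correlations was not tested.

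**Figure D4:**
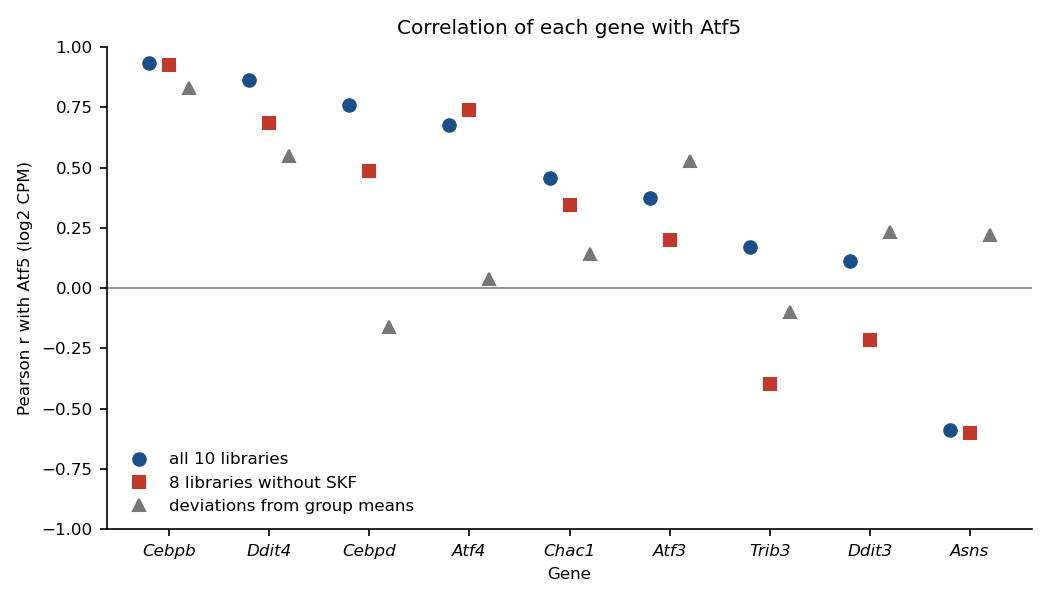
Pearson's r of 9 genes with Atf5 (vertical axis) over all 10 libraries, over the 8 libraries without SKF, and for deviations from group means. Cebpb stays between 0.83 and 0.93 in all 3, whereas Cebpd goes from 0.76 to -0.16, Atf4 from 0.68 to 0.04 and Asns from -0.59 to 0.22.

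Among all genes tested, those most like Atf5 over the 10 libraries were Scand1 (r = 0.98), Ftl1 (0.96), Rabac1 (0.96), Fam89b (0.96) and Sall2 (0.96). Ftl1 encodes the light chain of ferritin and Sall2 a zinc finger factor. The most opposite were Hnrpd (r = -0.98), Zfp105 (-0.98), Naa16 (-0.98), SNORD44 (-0.97) and Thoc2 (-0.97), of which Hnrpd and Thoc2 encode proteins of mRNA binding and export. SNORD44 lies within another transcript, and its counts are uncertain. None of the other 9 stress response genes was among either 5.

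The rest of the pathway was read from 7 gene lists. They had 16, 21, 13, 16, 20, 11 and 18 genes tested. Only 2 of their genes passed the threshold in any comparison, both with Aβ against SKF and both lower. In that comparison 2.08% of all genes were called, so 2 calls are no result about the lists. Phgdh, the first enzyme of serine synthesis, was 57.5 and 74.0 CPM in SKF and 39.5 and 39.9 CPM with Aβ (log2 fold change -0.73, SE 0.16, edgeR adjusted p = 0.0415). Gadd45a, a growth arrest and DNA damage gene, was 76.9 and 62.2 CPM in SKF and 46.1 and 35.8 CPM with Aβ (log2 fold change -0.76, SE 0.17, adjusted p = 0.0422). In neither did the groups overlap. Both calls are near the threshold, and over 17 alternatives the adjusted p ran from 0.0017 to 0.155 for Phgdh, called in 10, and from 9.47e-04 to 0.159 for Gadd45a, called in 11. Both calls were lost without SKF replicate 1, without either library of SKF+Aβ and without either of SKF+Aβ+CSP, and that of Phgdh also without SKF replicate 2. With only the libraries compared, both were lost too (adjusted p = 0.1 each), at log2 fold changes of -0.72 and -0.76.

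Genes of amino acid supply that ATF4 controls numbered 22, of which 21 were tested. With Aβ 17 of the 21 had a lower mean than in SKF, where 50.1% of all genes did, with a median log2 fold change of -0.24. Only 3 had an unadjusted p under 0.05, all lower, beside 22.8% of all genes, and 1 was called, beside 2.08%. The median was -0.14 with Aβ and CSP, -0.16 with Aβ and CSP-TTK21 and -0.03 with CSP-TTK21 alone, with none called. Phgdh with Aβ and CSP-TTK21 was 51.3 and 53.8 CPM, above both SKF+Aβ and below both SKF libraries. Slc7a1, a transporter of basic amino acids, was 111.8 and 84.1 CPM in SKF, 110.3 and 125.2 CPM with Aβ and CSP, which overlapped with SKF, and 82.1 and 76.7 CPM with Aβ and CSP-TTK21 (log2 difference between the last 2 groups -0.57, edgeR adjusted p = 0.523). Cbs, which makes cystathionine, ranged from 49.6 CPM in one SKF+Aβ library to 101.9 CPM in one of CSP-TTK21 alone. Asns was not counted in this list.

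The 16 genes tested of 20 in a list of other ATF4 targets and stress genes had a median of -0.27 with Aβ, where 7 had an unadjusted p under 0.05, 6 of them lower, beside 22.8% of all genes, and 1, Gadd45a, was called. The list's median was 0.05 with Aβ and CSP, -0.18 with Aβ and CSP-TTK21 and -0.20 with CSP-TTK21 alone, with none called. Gadd45a was 46.3 and 42.9 CPM with Aβ and CSP-TTK21 and 46.1 and 39.8 CPM with CSP-TTK21 alone, so that all 8 libraries outside SKF were below both SKF libraries, as for Atf5. Sesn2, like Ddit4 an inhibitor of mTORC1, was 79.1 and 51.4 CPM in SKF, 39.7 and 41.6 CPM with Aβ, 58.1 and 77.3 CPM with Aβ and CSP, 37.1 and 44.6 CPM with Aβ and CSP-TTK21 and 59.9 and 32.4 CPM with CSP-TTK21 alone. SKF+Aβ+CSP lay within the range of SKF, and its log2 difference from SKF+Aβ was 0.73 (SE 0.26, edgeR adjusted p = 1). Gdf15, a secreted stress hormone, was near the limit of detection, with at most 14 counts in a library. It was 1.38 and 1.87 CPM in SKF and at most 1.15 CPM in any other library. Its log2 difference from SKF was -1.87 (SE 0.66) with Aβ, -1.055 with Aβ and CSP and -0.68 with Aβ and CSP-TTK21. With CSP-TTK21 alone it was -2.88 (SE 0.74). None passed the threshold (edgeR adjusted p from 0.118 to 0.633).

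The list of aminoacyl-tRNA synthetases, which ATF4 also induces, gave a median log2 fold change against SKF of 0.01 with Aβ, 0.12 with Aβ and CSP, -0.04 with Aβ and CSP-TTK21 and -0.04 with CSP-TTK21 alone. None of the 13 was called in any comparison. Cars was 96.1 and 59.5 CPM in SKF, Yars 106.7 and 79.2 and Eprs 299.0 and 235.8, a wide spread within 1 group. Upstream of the pathway, a list of 16 genes held kinases, subunits of eIF2 and eIF2B, phosphatase subunits, Impact and Nck1. Its median was 0.12 with Aβ. Of the 16, 4 had an unadjusted edgeR p under 0.05 (3 higher and 1 lower, beside 22.8% of all genes), and none was called. Ppp1r15a, which encodes GADD34, the subunit that reverses the phosphorylation of eIF2 and is induced by the pathway, was 178.3 and 190.1 CPM in SKF against 105.3 and 130.6 CPM with Aβ (log2 fold change -0.64, SE 0.17, edgeR adjusted p = 0.0673). Both SKF libraries of Ppp1r15a lay above all 8 others, whose highest was 165.5 CPM. Eif2s3, a subunit of eIF2, was 95.1 and 103.2 CPM in SKF and 146.6 and 137.0 CPM with Aβ and CSP-TTK21 (0.52, SE 0.13, adjusted p = 0.108). Eif2ak4, the kinase GCN2 that senses uncharged tRNA, was 42.6 and 39.8 CPM in SKF, 63.4 and 44.6 CPM with Aβ and 40.7 and 36.2 CPM with Aβ and CSP-TTK21 (log2 difference between the last 2 groups -0.49, adjusted p = 0.746).

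**Figure D5:**
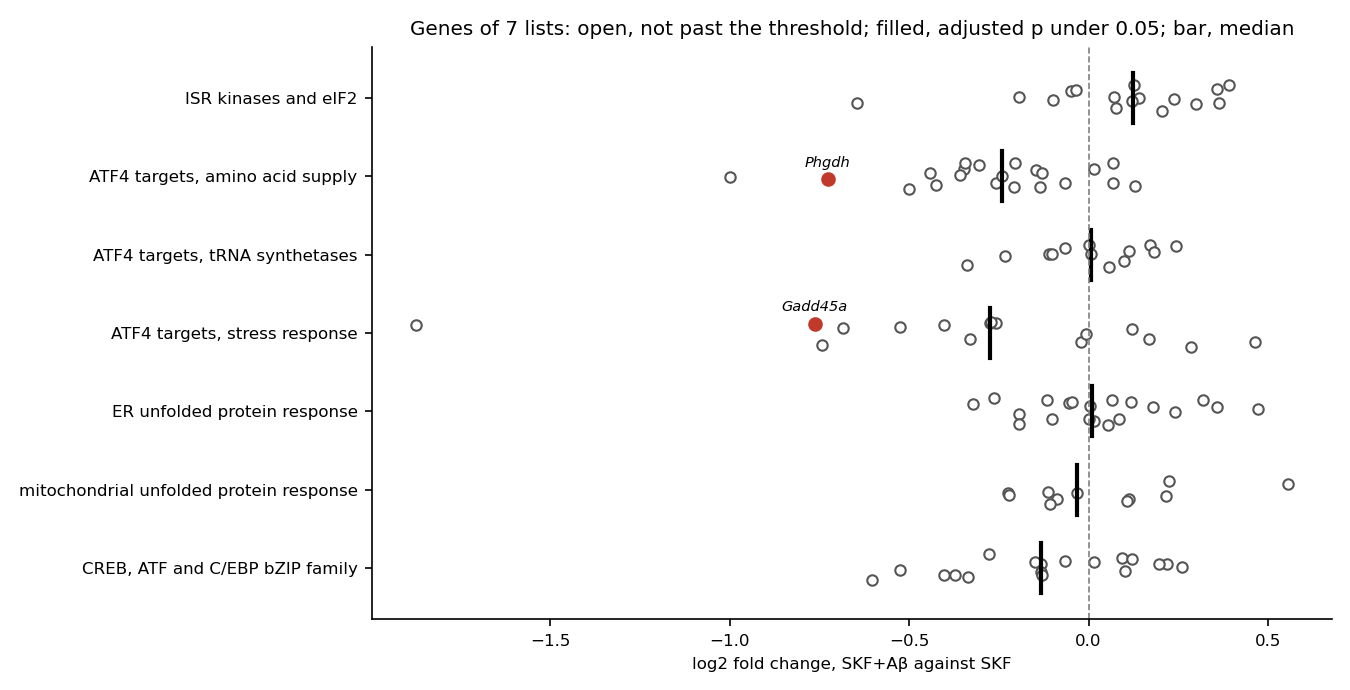
Log2 fold change of SKF+Aβ against SKF (horizontal axis) for the genes tested of 7 lists (vertical axis), with the median of each as a bar. Filled points passed an adjusted p of 0.05. Phgdh (-0.73) and Gadd45a (-0.76) are the 2 filled points, and medians run from -0.27 to 0.12.

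Chaperones and other genes of the endoplasmic reticulum stress response numbered 20, all tested. They had a median of 0.01 with Aβ, -0.01 with Aβ and CSP, 0.18 with Aβ and CSP-TTK21 and 0.08 with CSP-TTK21 alone, and none was called. Pdia3, a disulfide isomerase, was 163.1 and 155.0 CPM in SKF and 256.1 and 225.0 CPM with Aβ and CSP-TTK21 (log2 fold change 0.60, SE 0.15, edgeR adjusted p = 0.105). Dnajb9 (49.7 and 52.2 CPM) and Hsp90b1 (547.6 and 463.1 CPM) with Aβ and CSP-TTK21 were likewise above their SKF libraries, with adjusted p = 0.134 and 0.162.

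The mitochondrial stress response, which ATF5 is known to serve, gave a median between -0.03 and 0.07 against SKF over its 11 genes tested of 14, with none called. Clpx, a subunit of the matrix protease ClpXP, was lower in both SKF libraries than in any other, at 43.8 and 44.1 CPM in SKF and between 53.9 and 65.9 CPM in the other 8 libraries, 0.56 higher with Aβ (SE 0.14, edgeR adjusted p = 0.0583). Lonp1, the other main matrix protease, was 105.3 and 84.1 CPM in SKF and 71.5 and 75.0 CPM with Aβ and CSP-TTK21. Hspa9, the matrix chaperone mortalin, stayed between 189.6 and 247.7 CPM. Among 18 further CREB, ATF and C/EBP family genes tested of 21, a list that also counts Ddit3, the median was -0.13 with Aβ and -0.02 with CSP-TTK21 alone, and none was called. Atf6b, the membrane-bound relative of ATF6, was 68.6 and 70.6 CPM in SKF against 47.8 and 48.9 CPM with Aβ (log2 fold change -0.53, SE 0.15, adjusted p = 0.0776). Dbp, an output gene of the circadian clock, was 49.1 and 56.1 CPM in SKF against 31.7 and 37.6 CPM with Aβ (-0.60, SE 0.21, adjusted p = 0.115). Crebzf was 42.4 and 29.9 CPM in SKF against 24.3 and 22.8 CPM with Aβ and CSP-TTK21 (-0.62, adjusted p = 0.147).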

How the data were processed

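The files the authors deposited hold raw counts by Ensembl gene of the rat in 10 libraries (5 groups of 2), neither normalized nor pooled. Per the methods, ribosomal RNA was depleted with a stranded kit, adapters were trimmed with Trim Galore, PCR duplicates were removed with Samtools, and TopHat2, Cufflinks and Cuffdiff served for alignment and quantification. The methods name both a rat and a mouse assembly. The submitters' processing notes instead name STAR, RSEM, HISAT2, Salmon and GRCh38, a human build, without roles. The counting program and its use of strand are not given in the sources used here, so genes that overlap are uncertain. Removal of duplicates can lower the counts of abundant genes.

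Groups and replicate numbers came from the labels. Genes were filtered by group with filterByExpr and normalized with TMM in edgeR 4.0.16 (R 4.3.3). 1 quasi-likelihood fit of all 10 libraries with a mean per group gave log2 fold changes, SE and p-values, adjusted by Benjamini-Hochberg over 15032 genes. A gene was called at an adjusted p under 0.05. The common biological coefficient of variation was 0.136. Log2 CPM had a prior count of 2. Correlations with Atf5 are described without a test, although a permutation test was planned, because Atf5 was chosen on libraries that enter them. DESeq2 1.42.0, limma 3.58.1 and the other alternatives are given at the end. Scripts were tested on simulated counts.

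The 10 genes, the lists and the motifs were chosen with earlier results of these data known. Named beside the 10 are the 5 genes with the highest and the 5 with the lowest r with Atf5, and the 3 genes of each list with the lowest p over the 5 groups. Replicates of a group differed by more than sampling noise (chi-square per degree of freedom from 5.12 to 13.2). The text prints fold changes of the 10 genes only where the 2 groups do not overlap, and not for every such pair. All 10 symbols matched RefSeq.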

Additional observations from a re-analysis of the deposited data

How the results depend on the processing

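The 41 log2 fold changes of the 10 genes in comparisons whose groups do not overlap were recomputed in 691 alternative values, of which 0 had the opposite sign. Only groups that do not overlap were taken, so leaving out a library could hardly reverse a sign, and the 0 does not measure stability. Of the 691, 5 passed the threshold. Of the values described without a test, 14 moved by over 1 standard error. The count of called genes was 0 in each comparison in the main test, with a replicate block (0), RLE factors, at least 10 counts in every library, DESeq2, limma, only the libraries compared, an added limit of 1.5 on the log2 fold change, and each library left out. With no filter on low counts 25251 genes were tested, and calls over all genes rose too. In SKF+Aβ against SKF 3 were called (Cebpd, Ddit4 and Chac1), beside 1311 of all genes (312 in the main test). In SKF+Aβ+CSP against SKF+Aβ 1 was called (Chac1), beside 66 of all genes (main 0). In SKF+Aβ+CSP-TTK21 against CSP-TTK21 alone 1 was called (Atf3), beside 63 (main 0). Over the 5 groups 2 were called (Atf3 and Chac1), beside 1401 (main 1). The cause was not tested. The number of genes with SKF above all others, 3, was between 3 and 6 with 1 library left out, the highest without SKF replicate 2; this and the alternatives for Phgdh and Gadd45a were added after the data were seen.

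Same-numbered libraries deviated together with r from -0.0691 to 0.237, so the numbers were not taken as pairs. With the replicate block the calls over all genes went from 312 to 425 in SKF+Aβ against SKF, from 3 to 7 in SKF+Aβ+CSP, from 1 to 108 in SKF+Aβ+CSP-TTK21, from 0 to 14 in SKF+Aβ+CSP-TTK21 against SKF+Aβ+CSP and from 1 to 15 over the 5 groups. Calls in SKF+Aβ against SKF were 818 with DESeq2, 1311 without a filter, 12 with only the libraries compared, and from 1 (without SKF+Aβ replicate 1) to 301 with 1 library left out. In SKF+Aβ+CSP against SKF they were 456 with DESeq2, 754 without a filter and 54 with at least 10 counts; in SKF+Aβ+CSP-TTK21 against SKF, 330 with DESeq2, 902 without a filter and 335 without SKF replicate 2. Without a filter the other 5 pairwise comparisons had 157, 66, 128, 307 and 63 calls and the 5-group test 1401, with DESeq2 the 5-group test had 386 calls and the comparison of the loaded with the empty particle under Aβ 21, which had 50 with only the libraries compared, where the main counts were 0, and 1 for the 5-group test. Apart from these and the range with 1 library left out, counts of calls over all genes were at most 13 or within 1.5 times the main one. Trib3 had at most 18 counts in a library, so depth limits its values.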
